A study of Homo sapiens with 27 samples.

Results

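CPSF1 is the largest protein of CPSF, the complex for cleavage and polyadenylation that reads the AAUAAA signal near the end of a nascent transcript so that the RNA can be cut and given its poly(A) tail. When this complex is scarce, weak or early signals can be passed over and transcripts can end further downstream, which is seen as poly(A) sites beyond the annotated 3′ UTR. Knockdown by RNA interference carries another source of change besides the depth of the knockdown, because each hairpin can also act on transcripts of its own, so experiments use more than one hairpin per target.

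The data described here are the 6 LNCaP95 libraries that carried either of 2 hairpins against CPSF1, 3 with CPSF1 sh1 and 3 with CPSF1 sh2, out of 27 libraries in the series. LNCaP95 is an androgen-independent derivative of the LNCaP prostate cancer line. Both hairpins, like the CTRL sh control of 3 further libraries, were delivered by pGIPZ lentivirus into the same line, and infected cells were selected with puromycin, expanded, seeded at 500000 per well and harvested after 72 h in phenol red-free medium. The 2 groups therefore shared line, vector, selection and target and differed in the hairpin. How the 3 biological replicates of a hairpin were separated, before or after infection, is not given in the sources used here. Members were chosen by label alone. Poly(A)-ClickSeq (PAC-seq) reads the junction of a transcript with its poly(A) tail, and reads had been counted per gene in 4 regions, the 3′ UTR, the 10 kb downstream of the gene, the introns and the coding sequence (CDS).

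The 6 libraries held between 5431900 and 8193588 counted reads over the 4 regions. The shallowest was sh2 replicate 1. Replicate 2 of sh1 stood apart from the other libraries. Its CDS share was 20.1% against 13.9 to 17.1% in the other 5, and at IGFBP3 and other genes described below it resembled the sh2 libraries. Its label was kept, and a mix-up or carry-over between libraries was not tested, so every value of sh2 over sh1 from all 6 libraries depends on that label. Correlations with the CTRL sh libraries also set this library apart. In the 10 kb table they were 0.649, 0.690 and 0.645 (Pearson r across genes), each the lowest of the 6 knockdown libraries. The same held in introns and the CDS, and in the 3′ UTR table with CTRL sh replicates 1 and 3 but not 2. In introns each of the other 5 knockdown libraries had its lowest correlation among knockdown libraries with this library (0.920 to 0.939). The same held in the CDS except for sh2 replicate 1. In the 3′ UTR table it held for sh1 replicate 3 and sh2 replicates 1 and 2. Correlations among the knockdown libraries in the 10 kb table did not single this library out. In the 10 kb table its log2 levels correlated less with the 2 other sh1 libraries (Pearson r 0.885 and 0.863) than with the sh2 libraries (0.891 to 0.899), but sh1 replicate 1 also correlated more with sh2 replicates 2 and 3 (0.908 and 0.904) than with sh1 replicate 3 (0.899). Results are therefore given with and without it where it changes them. Prostate luminal markers were present in every library and summed to 7533 to 8181 CPM (a gene's read count scaled to the library's total in the table, here the 3′ UTR table) with sh1 and 7173 to 7715 with sh2, against 10528 to 10879 in CTRL sh. Of 6 basal epithelial markers KRT5 and KRT6A had 0 reads. The basal sum was 10.5 to 27.7 CPM with sh1 and 22.1 to 31.0 with sh2, against 3.76 to 7.02 in CTRL sh. Of 7 stromal markers COL1A2, DCN and LUM had 0 reads. The stromal sum was 51.9 to 75.3 CPM with sh1 and 66.4 to 73.6 with sh2, against 39.9 to 49.4 in CTRL sh. The neuroendocrine sum was 10.5 to 20.8 CPM with sh1 and 8.65 to 16.6 with sh2, against 12.1 to 15.5 in CTRL sh, with CHGB at 0.

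CPSF1 itself checks the knockdown. Its 3′ UTR level was 107, 72.1 and 120 CPM in the CTRL sh libraries, 37.3, 38.2 and 53.9 CPM with sh1 and 66.1, 49.3 and 43.3 CPM with sh2. All 6 knockdown libraries lay below all 3 controls, and the ranges of the 2 hairpins overlapped. The log2 fold change of sh2 over sh1 was 0.28 ± 0.21 (SE, n = 3 per group, adjusted p = 0.83, edgeR quasi-likelihood test), with a 95% interval from −0.16 to 0.73. By this readout the remaining CPSF1 transcript was not lower with sh2, and its mean was higher.

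No gene separated the 2 shRNAs at an adjusted p under 0.05 in any region. Of 11364 genes tested in the 3′ UTR table, 0 were called (0%), of 14712 in the 10 kb table, 0 (0%), of 12561 in introns 0 (0%) and of 4918 in the CDS 0 (0%). At an unadjusted p under 0.05 the numbers were 742, 797, 640 and 205 genes. The ratio of a gene's 10 kb reads to its 3′ UTR reads gave 0 calls among 10206 genes (0%), with 532 at an unadjusted p under 0.05, and the ratio of intron to 3′ UTR reads gave 0 among 9161 (0%), with 381. DESeq2 called 0 genes in the 3′ UTR, 10 kb and intron tables and 1 in the CDS (TTN, the sarcomere protein titin, higher with sh2). Against CTRL sh in a fit of all 9 LNCaP95 libraries, 2382 genes of the 3′ UTR table were called with sh1 (21%) and 3038 with sh2 (26.7%). In the 10 kb table these were 2941 with sh1 (20%) and 3511 with sh2 (23.9%). Both of those comparisons share the control libraries, and their counts do not test the difference between hairpins.

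The precision of the comparison differed by region. In the 3′ UTR table the median standard error of the log2 fold change was 0.22, and for 8937 genes (78.6%) the 95% interval of sh2 over sh1 lay within 2-fold in either direction. In the 10 kb table the median gene had only 8.17 reads per library, the median standard error was 0.60 and the interval lay within 2-fold for 2908 genes (19.8%). For introns the figure was 57.5% and for the CDS 42.1%. A 2-fold difference between hairpins was thus bounded for most 3′ UTRs and was not detectable at this depth for most downstream regions.

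**Figure D1:**
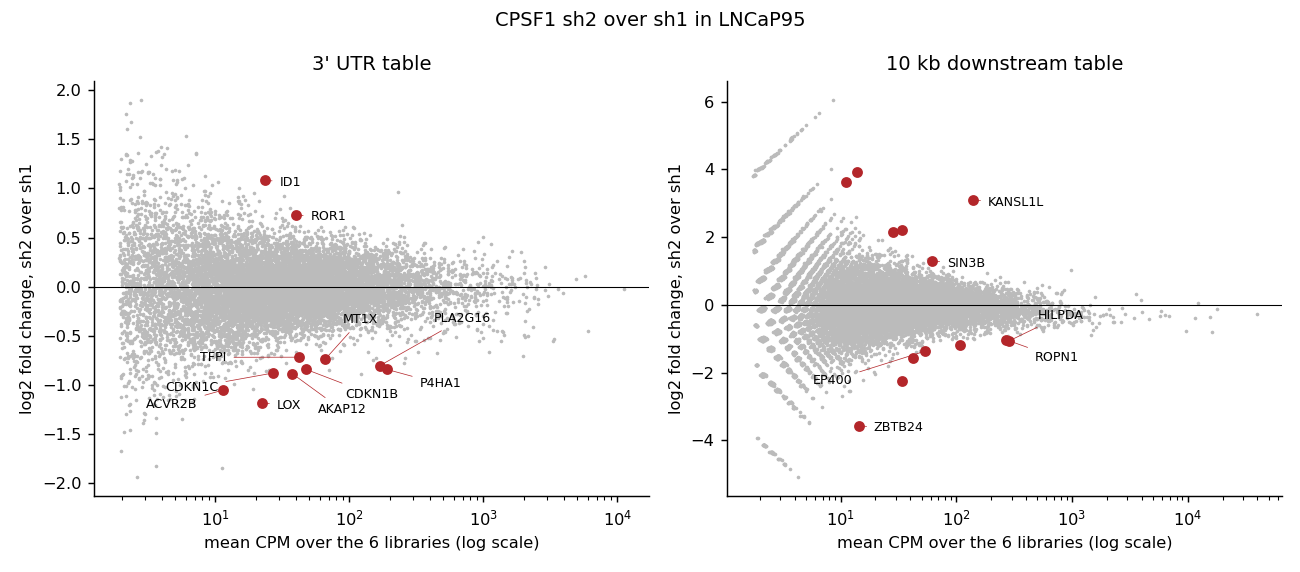
Log2 fold change of sh2 over sh1 in LNCaP95 against mean CPM over the 6 libraries (log scale) for every gene tested in the 3′ UTR table (left) and the 10 kb table (right). Red points are genes with an unadjusted p under 0.001 and a mean of at least 10 CPM, and none passed an adjusted p of 0.05. Labels are given for the genes named in the text. Diagonal streaks at the left of the 10 kb panel are genes with few reads.

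Leaving out sh1 replicate 2 changed these counts. This library was singled out after its values were seen, so the calls made without it are a description and do not test the hairpins. The other 5 libraries gave 8 called genes in the 3′ UTR table (0.0703% of those tested), 4 higher and 4 lower with sh2, and 49 in the 10 kb table (0.335%), 27 higher and 22 lower. They gave 42 in introns (0.334%), 37 of them higher, and 12 in the CDS (0.241%), 8 of them higher. No other library had such an effect, as leaving out any 1 of the other 5 gave 0 calls in the 3′ UTR and intron tables and at most 3 in the 10 kb table.

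The genes behind this change show how replicate 2 of sh1 differed from its group. IGFBP3, a secreted carrier that binds insulin-like growth factors, had a 3′ UTR level of 44.0, 368 and 55.2 CPM in sh1 replicates 1, 2 and 3, 273, 323 and 310 CPM in the sh2 libraries, and 33.3, 37.3 and 36.3 CPM in the controls. Replicate 2 of sh1 was above all sh2 libraries while replicates 1 and 3 were near the controls. Downstream of IGFBP3 (10 kb window chr7:45941650-45951649, minus strand, hg19) replicate 2 of sh1 was again above all sh2 libraries. The sh1 libraries read 127, 1668 and 137 CPM, the sh2 libraries 1141, 1385 and 1441 CPM and the controls at most 3.64 CPM. Here sh1 replicates 1 and 3 were far above the controls, unlike in the 3′ UTR. With all 6 libraries the log2 fold change of the IGFBP3 3′ UTR was 0.96 ± 0.56 (adjusted p = 0.80, edgeR). Leaving out sh1 replicate 2, the library that made the split, gave 2.61 ± 0.19, which is a description and not a test.

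S1PR3, a receptor for sphingosine-1-phosphate, followed the same order with 13.7, 44.6 and 8.59 CPM in the sh1 libraries and 36.8, 36.0 and 41.1 CPM in the sh2 libraries. BRINP1, a neural protein, read 10.5, 70.1 and 16.1 CPM with sh1 and 34.5, 40.8 and 35.9 CPM with sh2. INSIG1, which holds the sterol sensor SCAP in the endoplasmic reticulum, moved in the other direction with 232, 96.7 and 235 CPM with sh1 and 110, 117 and 109 CPM with sh2. For each of these genes sh1 replicate 2 lay with the sh2 libraries or past them, a placement favoured by choosing genes called only without it. NRP1, a co-receptor for semaphorins and VEGF, read 11.7, 104 and 28.3 CPM downstream of the gene with sh1 and 122, 95.8 and 101 CPM with sh2. CPSF1 gave no such split, since sh1 replicate 2 read 38.2 CPM beside 37.3 CPM in replicate 1.

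**Figure D2:**
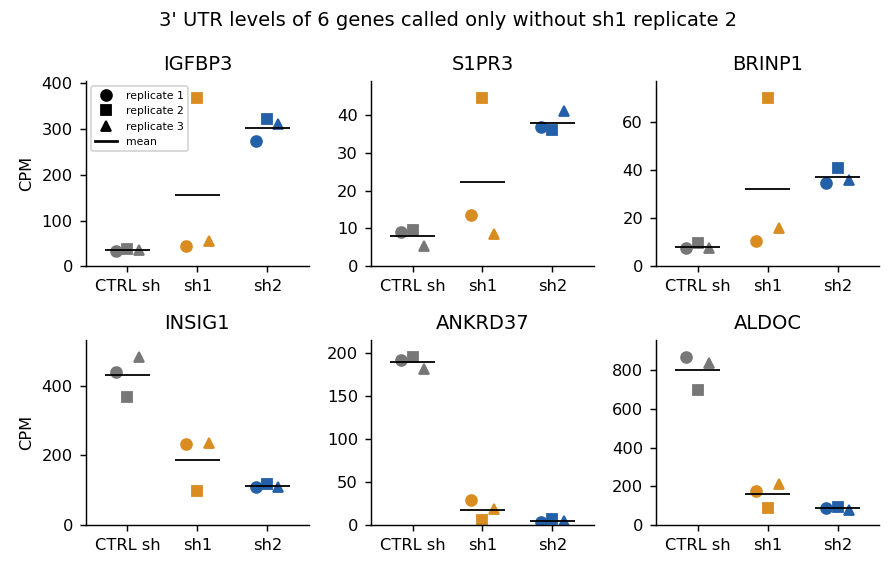
CPM of 6 genes in the 3′ UTR table for each LNCaP95 library, with replicates as symbols and the group mean as a bar. In all 6 genes sh1 replicate 2 (square) sits nearer the sh2 libraries than to sh1 replicates 1 and 3. These genes were called only without that library, so their choice favoured this placement.

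Whether a difference was graded or specific to 1 shRNA was read from each gene's change from CTRL sh in a 9-library fit. Graded means that both hairpins passed against CTRL sh in the same direction and 1 went further, and sh2 alone or sh1 alone that 1 of them passed. Alone therefore means only that the other hairpin missed the threshold, and not that it had no effect. Without sh1 replicate 2 the sh1 group is also the smaller one, so sh1 passes less easily. Among the 8 genes of the 3′ UTR table called without sh1 replicate 2, placed by the remaining 8 LNCaP95 libraries, the 4 lower genes (ALDOC, ANKRD37, INSIG1 and VEGFA) were graded with sh2 further, and the 4 higher genes (IGFBP3, S1PR3, ID1 and BRINP1) were sh2 alone. Among the 49 of the 10 kb table, 23 were graded with sh2 further, 19 sh2 alone, 1 graded with sh1 further, 1 sh1 alone and 5 in no class. IGFBP3, sh2 alone in the 3′ UTR table, was graded with sh2 further in the 10 kb table. Of all genes in the same fit, 9.0% of the 3′ UTR table were graded with sh2 further and 17.9% sh2 alone, and in the 10 kb table these were 9.22% and 11.5%. With all 9 libraries the sh2 alone shares were smaller, 9.66% in the 3′ UTR table and 6.78% in the 10 kb table. FAM110B, sh2 alone in the 10 kb table, had a log2 change from CTRL sh of 3.54 with sh1 (adjusted p = 0.26, edgeR). The sh1 mean lay between CTRL sh and sh2 for 7 of 8 and 40 of 49 of these genes, and for 53.4% and 48.6% of all genes tested in the same fits. The calls and the classes use the same sh1 and sh2 libraries, so these counts are a description.

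With all 6 libraries, 12 of the 11364 genes tested in the 3′ UTR table had an unadjusted p under 0.001, with 3 higher and 9 lower in sh2. Where no gene differs, a share of about 0.001 of genes is expected to pass, so the 12 are not shown to separate the hairpins. These genes were chosen after their values were seen, and the edgeR adjusted p of every one was 0.76. Of the 12, 7 were graded with sh2 further, 3 were sh2 alone, 1 was sh1 alone and 1 had no class, against CTRL sh. Of all genes tested in that table, 11.7% were graded with sh2 further, 9.66% sh2 alone, 3.89% sh1 alone and 69.4% in no class. The choice of the 12 and their classes use the same sh1 and sh2 libraries. Genes picked for a difference between hairpins fall in a class more readily, so these counts are a description.

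P4HA1 and LOX lead the graded genes. P4HA1 (counted 3′ UTR chr10:74766675-74767979, minus strand, hg19) encodes a catalytic subunit of the prolyl hydroxylase that matures collagen, and it read 470, 454 and 511 CPM in CTRL sh, 218, 291 and 224 CPM with sh1 and 124, 148 and 137 CPM with sh2. The 3 groups did not overlap, and the log2 fold change of sh2 over sh1 was −0.84 ± 0.17. LOX, the lysyl oxidase that cross-links collagen, read 111, 124 and 98 CPM in the controls, 43.8, 23.1 and 26.4 CPM with sh1 and 11.5, 16.8 and 12.4 CPM with sh2, a difference of −1.18 ± 0.27.

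Both Cip/Kip inhibitors of cyclin-dependent kinases in the group of 12 were graded as well. CDKN1B (p27) read 74.9, 52.3 and 54.1 CPM with sh1 and 31.2, 40.2 and 29.9 CPM with sh2, against 152, 166 and 139 CPM in the controls. CDKN1C (p57) read 38.5, 27.5 and 38.2 CPM with sh1 and 19.3, 19.5 and 18.2 CPM with sh2, against 101, 81.9 and 106 CPM. Each gene had its groups in the order CTRL sh, sh1, sh2 with no overlap, and the differences of sh2 from sh1 were −0.84 ± 0.20 and −0.88 ± 0.20. PLA2G16, a phospholipase, had a difference of −0.80 ± 0.19.

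Higher with sh2 was ROR1, a receptor-like tyrosine kinase, which read 18.1, 13.3 and 16.8 CPM in CTRL sh, 29.7, 31.2 and 29.0 CPM with sh1 and 52.4, 47.0 and 50.2 CPM with sh2. The 3 groups were again separate, with a difference of 0.73 ± 0.16. AC027307.3, on chromosome 19, had 1, 4 and 0 reads in the controls, 23, 15 and 16 with sh1 and 27, 54 and 41 with sh2.

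ACVR2B, an activin receptor, read 19.1, 15.6 and 16.1 CPM in CTRL sh, 16, 13.6 and 16.5 CPM with sh1 and 7.43, 7.24 and 7.65 CPM with sh2, so that sh1 and the controls overlapped and sh2 lay below both (−1.05 ± 0.25). TFPI, the inhibitor of the tissue factor coagulation pathway, read 42.8, 60.9 and 43.7 CPM in the controls, 54.5, 51.6 and 50.7 CPM with sh1 and 31.9, 28.8 and 34.9 CPM with sh2 (−0.72 ± 0.17). ID1, an inhibitor of basic helix-loop-helix factors, read 10.7, 22.1 and 12.5 CPM with sh1 and 29.7, 33.3 and 32 CPM with sh2, against 12.8, 11 and 11.7 CPM in the controls (1.08 ± 0.25). Here sh1 replicate 2 lay between the controls and sh2.

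MT1X, a metallothionein that binds zinc and copper, was the 1 gene classed as sh1 alone. It read 49.3, 66.4 and 57.2 CPM in CTRL sh, 90.9, 69.9 and 86.3 CPM with sh1 and 43.1, 55.3 and 49.5 CPM with sh2, so sh1 lay above the controls and sh2 overlapped them (−0.74 ± 0.17). AKAP12, a scaffold of protein kinase A, passed with neither hairpin against CTRL sh and read 62.1, 38.2 and 45.7 CPM with sh1 and 23.4, 30.6 and 24.9 CPM with sh2.

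**Figure D3:**
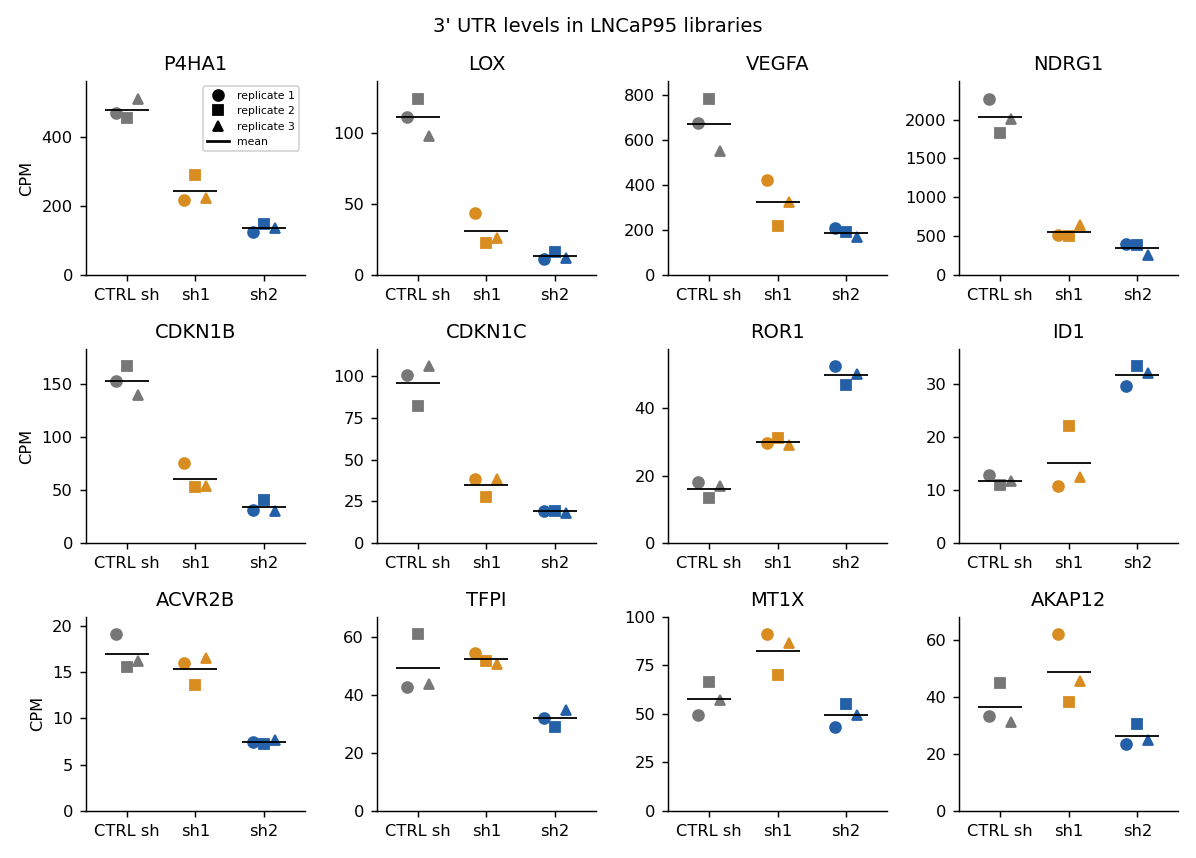
CPM in the 3′ UTR table for 12 genes in the 9 LNCaP95 libraries (symbols are replicates, bars are group means). P4HA1, LOX, CDKN1B, CDKN1C and ROR1 step from CTRL sh through sh1 to sh2, whereas in ACVR2B and TFPI the sh1 libraries overlap CTRL sh and in MT1X the sh2 libraries do. In ID1 sh1 replicates 1 and 3 lie near CTRL sh and replicate 2 lies between CTRL sh and sh2.

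The same 2 hairpins had been used in LNCaP and in 22Rv1, a castration-resistant prostate cancer line, in libraries separate from those of LNCaP95. The contrast of sh2 with sh1 there called 3 genes of the 3′ UTR table in LNCaP (0.0272% of those tested) and 212 in 22Rv1 (1.83%), and in the 10 kb table, 22 in LNCaP (0.164%) and 170 in 22Rv1 (1.17%). None of the 12 leading LNCaP95 genes of the 3′ UTR table was called in LNCaP, where 10 could be tested. Of these 10, 5 had the same sign as in LNCaP95. In 22Rv1 3 of 10 had the same sign and 1 of the 10 was called. This was MT1X, which was higher with sh2 there (0.97, adjusted p = 0.0038, edgeR). Other regions differed in this. Of the 16 downstream genes with an unadjusted p under 0.001, 10 of 15 tested in LNCaP and 8 of 12 in 22Rv1 had the same sign. For the 11 such intron genes these were 9 of 11 and 8 of 11. The CDS went the other way, with 0 of 3 and 0 of 2. None of these downstream, intron or CDS genes was called in either line. The genes called in 22Rv1 had medians near 0 in LNCaP95, −0.06 for 84 tested genes that were higher there and 0.07 for 98 that were lower. In the 10 kb table the medians were 0.08 for 107 genes higher in 22Rv1 and −0.26 for 54 genes lower, beside −0.02 for all genes tested. For 9 tested genes lower in LNCaP the median was −0.55, with all 9 below 0, and for 9 tested genes higher in LNCaP it was −0.08, with 4 above 0. Without sh1 replicate 2 the genes higher in 22Rv1 had medians of 0.08 in the 3′ UTR table, a turn of direction, and 0.24 in the 10 kb table, where 5 were called higher. The 98 genes that were lower in 22Rv1 had a 3′ UTR median of −0.02, also a turn. The difference between lines was itself tested by a line-by-shRNA term. It called 0 genes of 11766 in the 3′ UTR table between LNCaP95 and LNCaP (769 at an unadjusted p under 0.05). Between LNCaP95 and 22Rv1 it called 5 (1268 at that threshold). In the 10 kb table it called 2 of 14881 genes between LNCaP95 and LNCaP (918 at that threshold) and 2 between LNCaP95 and 22Rv1 (864).

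Genes that changed on knockdown in the other lines were examined next. Knockdown there used the same sh1 and sh2 hairpins, so a hairpin-specific effect shared between lines could also place a gene on such a list. Whether a difference was graded or hairpin-specific was therefore not tested by these lists. In the 3′ UTR table, 34 genes were called higher and 40 lower on knockdown over CTRL sh in both LNCaP and 22Rv1, with no LNCaP95 library used. In LNCaP95 none of the tested members was called between hairpins. The 34 higher genes had a median log2 fold change of sh2 over sh1 of 0.28, with 26 above 0 and 10 higher at an unadjusted p under 0.05, where 3.27% of all genes tested were. The 39 lower genes that could be tested had a median of −0.26, with 36 below 0 and 13 lower at an unadjusted p under 0.05, where 3.26% of all genes were. The median of all genes tested was −0.01.

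Downstream regions were examined in the same way. Of 503 tested genes called higher in the 10 kb table on knockdown in both other lines, 318 were above 0 in LNCaP95, the median was 0.13 and 25 were higher at an unadjusted p under 0.05, beside 2.73% of all genes. Of 115 called lower, 104 were below 0, the median was −0.35 and 19 were lower at that threshold, beside 2.69% of all genes. From CTRL sh the median change of the 503 genes was 2.19 with sh1 and 2.27 with sh2, and that of the 115 genes was −1.05 and −1.38. Without sh1 replicate 2 the medians of sh2 over sh1 were 0.28 and −0.49, and 8 of the 503 genes were called higher and 5 of the 115 lower. In introns 206 genes called higher in both other lines had a median of 0.15 with 152 above 0, and 20 called lower had a median of −0.17 with 17 below 0. Without sh1 replicate 2 these medians were 0.37, with 9 genes called higher, and −0.21, with 1 called lower.

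Members of these lists varied. In the 3′ UTR list, HIST1H2BK, a histone H2B gene, averaged 43.7 CPM in CTRL sh, 48.8 with sh1 and 74.5 with sh2. HIST2H2AA3 averaged 150 CPM in the controls, 150 with sh1 and 205 with sh2, with the near-identical copy HIST2H2AA4 at 117, 118 and 151 CPM, so that reads of these copies cannot be assigned with certainty. Most replication-dependent histone transcripts end in a stem-loop and carry no poly(A) tail. Among the lower genes PGK1, the glycolytic phosphoglycerate kinase, read 2883, 1934 and 2749 CPM with sh1 and 1689, 1874 and 1800 CPM with sh2, against 7942, 7140 and 7501 CPM in the controls. SCD, a fatty acid desaturase, averaged 1048 CPM in the controls, 424 with sh1 and 292 with sh2. ROPN1 led the lower genes downstream, with 450, 241 and 385 CPM with sh1, 148, 216 and 162 CPM with sh2 and 718, 866 and 590 CPM in the controls.

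**Figure D4:**
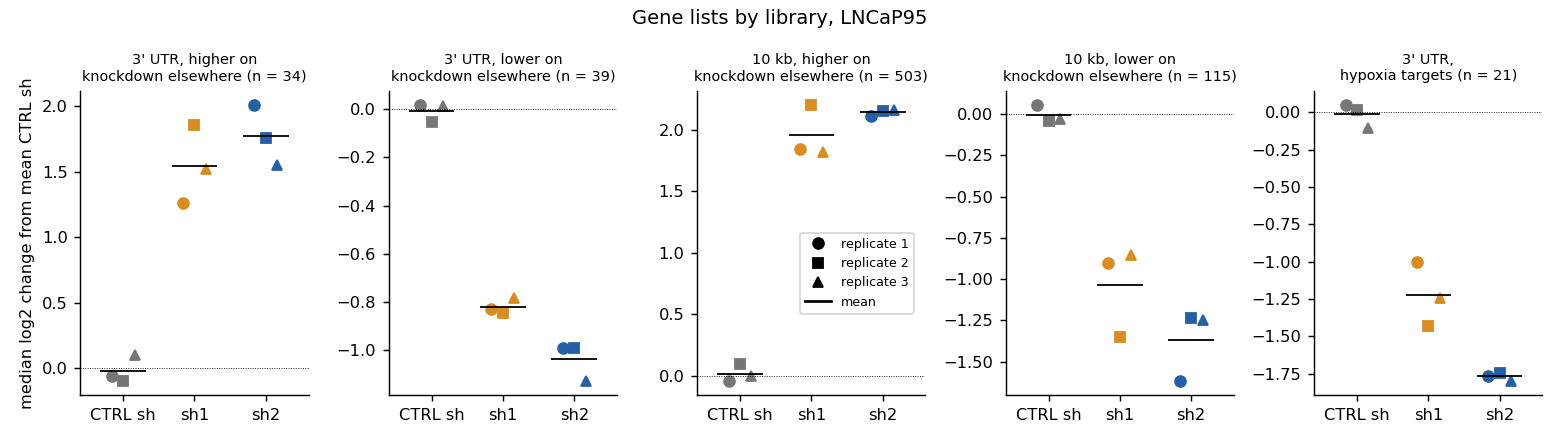
Median log2 change from the mean of CTRL sh over the genes of a list, for each LNCaP95 library (n is the number of genes, symbols are replicates, bars are means). For genes lower on knockdown elsewhere in the 3′ UTR table and for hypoxia targets all sh2 libraries lie below all sh1 libraries, while in the other 3 lists sh1 replicate 2 lies within or past the range of the sh2 libraries.

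Hypoxia targets stood furthest from 0 among the 10 gene lists examined in the 3′ UTR table. These genes are activated by hypoxia-inducible factors, and ACGTG was the only core sequence of their binding sites searched for here. The cis element is shown for members with an unadjusted p under 0.05, as windows of the promoter sequence in RefSeq (build GRCh38.p14, each 5′ to 3′ on the strand of the gene), with the core or its reverse complement CACGT in capitals.
P4HA1 chr10:73096938-73096962: tgatcgagctCACGTagcgagggct
LOX chr5:122078430-122078454: tccctgtgcaACGTGtctgggggga
ANKRD37 chr4:185396669-185396693: cgccgggctcCACGTgccagtgttt
BNIP3 chr10:131982043-131982067: gcacgcgccgCACGTgccacacgca
Of the 21 list members tested, 16 had an entry among promoters spanning 250 bases before to 50 bases after the start, and 7 of these (43.8%) held the core on either strand, against 21.4% of all 35116 promoters. PFKFB3 and PDK1 held no match in this window, and VEGFA, NDRG1, BNIP3L, JMJD6 and ERO1L had no entry. A match is a description of the sequence only.

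Of the 21 hypoxia targets 20 were below 0 for sh2 over sh1, the median was −0.42, 9 were lower at an unadjusted p under 0.05 and 0 were called. Over all genes of the table, 48.0% were above 0 and 3.26% were lower at that threshold. VEGFA, the angiogenic growth factor, read 424, 220 and 327 CPM with sh1 and 208, 192 and 170 CPM with sh2, against 676, 785 and 551 CPM in the controls. NDRG1 read 518, 511 and 643 CPM with sh1 and 400, 385 and 264 CPM with sh2, against 2267, 1830 and 2003 CPM. In both genes no sh2 library reached the lowest sh1 library.

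BNIP3L, a mitophagy receptor, read 423, 301 and 398 CPM with sh1 and 235, 262 and 269 CPM with sh2. ANKRD37 had the most extreme difference, −1.84 ± 0.49, with 29.5, 5.45 and 18.2 CPM with sh1 and 2.97, 6.62 and 4.78 CPM with sh2, and here sh1 replicate 2 lay within the sh2 range. The member above 0 was JMJD6 (0.28 ± 0.18). The median change from CTRL sh over the list was −1.005, −1.43 and −1.24 in the sh1 libraries and −1.76, −1.74 and −1.80 in the sh2 libraries, with no overlap. Without sh1 replicate 2 the median of sh2 over sh1 was −0.61. The order did not extend to the other lines, where the list's median of sh2 over sh1 was 0.09 in LNCaP and 0.01 in 22Rv1. It did not extend to the 10 kb table either, in which 14 of 22 members were below 0 with a median of −0.13, and 0.04 without sh1 replicate 2. Of the 24 genes listed, 4 (BNIP3, BNIP3L, P4HA1 and PDK1) also belong to the 40 genes lower on knockdown in both other lines.

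The other lists were closer to 0 in the 3′ UTR table, and 0 members were called in any of them. Of 17 glycolysis genes 11 were below 0 with a median of −0.12, and ALDOC, HK2, LDHA and PGK1 were lower at an unadjusted p under 0.05. HK2, the hexokinase of the first glycolytic step, read 142, 83.3 and 88.9 CPM with sh1 and 46.8, 76.4 and 75.8 CPM with sh2. Of 25 stress response genes 19 were below 0 with a median of −0.20. The stress factor ATF3 read 33.3, 22.8 and 27.3 CPM with sh1 and 12.3, 18.4 and 19.6 CPM with sh2.

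The 32 genes of DNA replication and mitosis had a median of −0.13, the 22 p53 targets of −0.09 and the 19 androgen response genes of −0.06. TMPRSS2, an androgen-regulated serine protease, read 110, 81.6 and 81.4 CPM with sh1 and 34.5, 61.5 and 55.0 CPM with sh2, and these groups did not overlap. Sterol and fatty acid synthesis had a median of 0.04 over 27 genes. The interferon response, a common reaction to double-stranded RNA, had a median of 0.05 over 18 genes, 1 higher (OAS3) and 1 lower (PARP14) at an unadjusted p under 0.05, and the RNA interference machinery had a median of −0.03 over 13 genes with 0 at that threshold. In LNCaP the interferon list had a median of −0.73. Among the 19 polyadenylation factors the median was 0.03. SYMPK, the scaffold symplekin, read 25.9, 21.1 and 38.2 CPM with sh1 and 57.9, 43.1 and 45.2 CPM with sh2, while FIP1L1 and CSTF3 were lower with sh2 (−0.53 ± 0.19 and −0.40 ± 0.17).

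The share of each library's reads that fell in the 10 kb regions was higher with sh2. It was 5.10, 5.80 and 5.44% in the sh1 libraries, 7.10, 6.19 and 6.43% in the sh2 libraries and 3.63, 3.48 and 3.75% in CTRL sh. The 3 groups did not overlap and stood in the order CTRL sh, sh1, sh2. The difference of sh2 from sh1 was 1.12 percentage points (5.45% ± 0.35 against 6.57% ± 0.47, SD, n = 3), with p = 0.1 in a two-sided exact permutation test, the smallest that 3 against 3 libraries allow, and 0.4 after adjustment over 4 regions. In the other lines the 10 kb share was higher with sh2 too, by 0.95 points in LNCaP and 0.60 points in 22Rv1 (exact p = 0.1 each). The other shares overlapped between hairpins, with a 3′ UTR share of 54.2% ± 2.77 with sh1 and 54.3% ± 4.92 with sh2 (SD, n = 3). The gene-wise fold changes were normalised within a table and therefore do not show a change shared by all of its genes. When a library's total over all 4 tables was used as its size, together with TMM factors taken from 3′ UTR reads (2 choices changed at once), the median log2 fold change of all genes was 0.34 in place of −0.02 in the 10 kb table and 0.17 in place of −0.01 in introns, and was −0.01 in the 3′ UTR table.

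**Figure D5:**
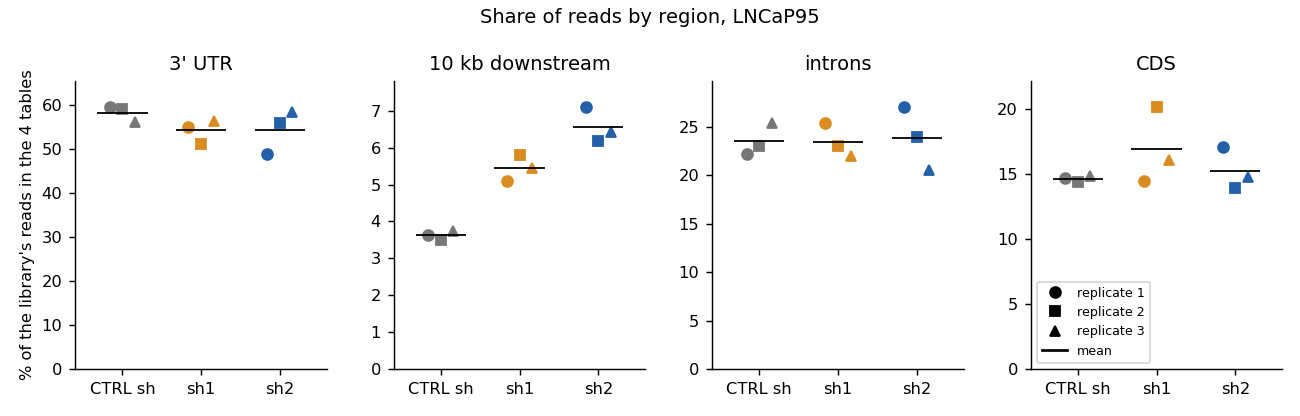
Percentage of each LNCaP95 library's reads over the 4 tables that lie in each region (symbols are replicates, bars are group means). In the 10 kb panel the sh2 libraries, 6.19 to 7.10%, lie above the sh1 libraries, 5.10 to 5.80%, and both above CTRL sh, and in the CDS panel sh1 replicate 2 stands alone at 20.1%.

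The 4 glycolytic genes whose downstream poly(A) sites the study followed did not separate the hairpins. GPI, glucose-6-phosphate isomerase, had 205, 352 and 267 reads in its 10 kb window (chr19:34893361-34903360, plus strand, hg19) with sh1, 233, 392 and 336 with sh2 and 16, 23 and 28 in CTRL sh. Both hairpins lay far above the controls and overlapped each other, and the log2 fold change of sh2 over sh1 was 0.09 ± 0.26 with a 95% interval from −0.44 to 0.61. ALDOA was at −0.00 ± 0.27 and PGK1 at 0.24 ± 0.28 downstream, with intervals from −0.54 to 0.53 and from −0.32 to 0.80. PFKM had 259, 280 and 311 reads with sh1 and 187, 223 and 206 with sh2, a difference of −0.59 ± 0.25 (adjusted p = 0.86, edgeR), and its counted window overlaps ASB8 on the other strand. In the 3′ UTR table the differences were −0.29 ± 0.16 for GPI, −0.30 ± 0.20 for PFKM, −0.36 ± 0.17 for ALDOA and −0.50 ± 0.18 for PGK1. The ratio of downstream to 3′ UTR reads differed by 0.38 ± 0.32, −0.30 ± 0.33, 0.34 ± 0.32 and 0.74 ± 0.35 in the same order. The windows of GPI and ALDOA also take in parts of PDCD2L and PPP4C on the same strand, whose exons were left out of the count.

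Of the 1642 genes of the 10 kb table whose 3 sh2 values did not overlap the 3 sh1 values (11.2%, and 12.7% in the 3′ UTR table), 14 were among the 16 with an unadjusted p under 0.001, again chosen after their values were seen. The 16 came from 14712 genes tested, so they too are not shown to separate the hairpins. Of these 16, 4 were graded with sh2 further, 1 was graded with sh1 further, 4 were sh2 alone, 2 were sh1 alone and 5 had no class. Over all genes of that table, 10.5% were graded with sh2 further, 6.61% graded with sh1 further, 6.78% sh2 alone, 2.9% sh1 alone and 73.2% in no class. The choice of the 16 and their classes use the same sh1 and sh2 libraries, so these counts are a description. The smallest adjusted p, 0.051 (edgeR), belonged to KANSL1L and came from 1 library, with 9, 18 and 13 reads with sh1 and 14, 16 and 331 with sh2. Without sh2 replicate 3 its log2 fold change was 0.01. The whole window lies opposite RPE on the other strand.

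Reads were more even at SIN3B, a transcriptional co-repressor, with 17, 15 and 17 reads with sh1, 31, 60 and 43 with sh2 and 0, 5 and 3 in CTRL sh, a graded order, and its log2 fold change was 1.29 ± 0.36 here, 1.58 in LNCaP and 1.75 in 22Rv1, with none of the 3 passing the test. CCDC141 had 0 reads in all sh1 libraries and 11, 5 and 9 with sh2, and its window lies inside TTN on the same strand. TTN itself had 9, 37 and 9 CDS reads with sh1 and 84, 67 and 57 with sh2.

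HILPDA, a hypoxia-inducible lipid droplet protein, was lower downstream with sh2, with 481, 310 and 374 CPM with sh1, 185, 181 and 191 CPM with sh2 and 1596, 1757 and 1245 CPM in CTRL sh (−1.06 ± 0.27). EP400, a chromatin remodelling ATPase, had 24, 43 and 39 reads with sh1, 16, 12 and 16 with sh2 and 105, 79 and 97 in CTRL sh. ZBTB24, a zinc finger factor, was classed as sh1 alone, with 12, 19 and 6 reads against 1, 0 and 2 with sh2 and 0, 0 and 3 in CTRL sh. The windows of these genes also meet same-strand neighbours, so that reads may belong to either gene. The HILPDA window lies wholly within HILPDA-AS1, 9894 bases of the ZBTB24 window lie within MICAL1, 2509 bases of the ROPN1 window within CCDC14 and 575 bases of the SIN3B window within F2RL3, and the EP400 window meets an unnamed lncRNA.

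In introns 11 of 12561 genes tested had an unadjusted p under 0.001, and these are likewise not shown to separate the hairpins. Of the 11, 7 were sh2 alone, 2 graded with sh2 further and 2 in no class. Over all genes tested these classes held 6.78%, 7.88% and 77.0%. Choice and classes again use the same sh1 and sh2 libraries, so the counts are a description. RAPSN, which clusters acetylcholine receptors, had 9, 11 and 8 reads with sh1, 36, 32 and 27 with sh2 and 4, 4 and 2 in CTRL sh. APPL1, an endosomal adaptor, had 84, 91 and 114 reads with sh1 and 47, 32 and 41 with sh2. HOXB13, the prostate homeobox factor, had 52, 105 and 68 intron reads with sh1 and 30, 32 and 17 with sh2, and here sh1 replicate 2 lay farthest from the sh2 libraries, unlike at IGFBP3. In each of these genes the hairpins did not overlap, and the lowest edgeR adjusted p in the intron table was 0.24.

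Since no gene was called with all 6 libraries, length and base composition of called genes could not be compared. The hairpin sequences were not used here, so matches of hairpin seeds to the genes above were not examined.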

How the data were processed

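PAC-seq reads were processed by the authors with HISAT2 (2.1.0), DPAC and featureCounts of Subread (2.0.3) on GRCh37, and the deposited values are raw read counts per protein-coding gene in 4 tables (3′ UTR, 10 kb downstream without same-strand exons, introns, CDS). All columns were mapped to labelled samples. Reads were not normalised by the authors in these files. Here sh2 was tested over sh1 in LNCaP95 with edgeR 4.0.16 (R 4.3.3, quasi-likelihood F-test, TMM within each table), for genes above a mean of 2 CPM over the 6 libraries, with Benjamini-Hochberg adjustment at 0.05. Fold changes are given ± SE. Printed CPM values of genes use TMM factors over the 9 LNCaP95 libraries. The marker sums are scaled only to the library's total in the 3′ UTR table, without TMM factors. Region shares were compared by exact permutation tests.

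Named genes were to be CPSF1, GPI, PFKM, ALDOA and PGK1 plus called genes with at least 10 CPM and no overlap. As none was called, genes with an unadjusted p under 0.001 were named after their values were seen. The comparison, the rule and the 14 gene lists (10 of biology, 4 of markers) were chosen with earlier results of these data known. The labels give 3 biological replicates per group without saying how they were separated, so p-values measure the spread between these samples. Same-numbered sh1 and sh2 libraries did not deviate together (correlation of deviations from group means −0.20 to 0.04), so replicate numbers were not used to pair them. Alternatives were DESeq2 (1.42.0), RLE factors, other filters, a replicate block, all 9 libraries, summed library sizes and each library left out. The fits were checked on simulated counts.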

Additional observations from a re-analysis of the deposited data

Results flagged for a closer look

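The line-by-shRNA term of edgeR separated LNCaP95 from 22Rv1 for 2 of the genes described above, so that the effect of 1 hairpin over the other differed between these lines. For the MT1X 3′ UTR the log2 fold change of sh2 over sh1 was −0.74 in LNCaP95 and 0.97 in 22Rv1, a difference of −1.71 (adjusted p = 0.0013). For the 10 kb region of KANSL1L the difference was 3.05 (adjusted p = 0.040), from 3.09 in LNCaP95 and 0.08 in 22Rv1, and the LNCaP95 value rests on sh2 replicate 3.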

How the results depend on the processing

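With each library left out in turn, the genes higher and lower with sh2 numbered 0 to 4 and 0 to 4 in the 3′ UTR table, 0 to 27 and 0 to 22 in the 10 kb table, 0 to 37 and 0 to 5 in introns, 0 to 8 and 0 to 4 in the CDS, 0 to 1 and 0 for the 10 kb ratio, and 0 and 0 throughout for the intron ratio, with the upper ends of the 4 tables from sh1 replicate 2. With no filter on low counts they were 3 and 11 in the 3′ UTR table, 4 and 2 in the 10 kb table, 5 and 10 in introns and 3 and 0 in the CDS. DESeq2 called 1 higher gene in the CDS, and the fit of all 9 libraries 1 higher in the 10 kb table. Summed library sizes with 3′ UTR TMM factors, which change both choices at once, gave 2 higher in the 10 kb table, 2 in introns and 1 for the intron ratio. Replicate numbers did not pair the libraries, and a replicate block gave 1 higher gene each in the 10 kb table, introns, the CDS and the intron ratio, and 0 in the 3′ UTR table.

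With each library left out, the difference in share ranged from −1.84 to 2.89 points for the 3′ UTR, 0.86 to 1.31 for the 10 kb region, −1.19 to 2.04 for introns and −2.87 to −0.035 for the CDS. The median 3′ UTR share per gene differed by −2.90 points. Relative to all genes tested, the list medians ranged from 0.20 to 0.35 and −0.34 to −0.25 for genes higher and lower on knockdown elsewhere in the 3′ UTR table, 0.06 to 0.26 and −0.51 to −0.21 in the 10 kb table, −0.61 to −0.27 for hypoxia targets in the 3′ UTR table and −0.20 to 0.018 downstream. GPI downstream ranged from −0.050 to 0.27 with each library left out, and was −0.00022 without sh2 replicate 3. ALDOA downstream was 0.0055 with no filter, 0.37 with summed library sizes and 3′ UTR factors, and from −0.098 to 0.12 with each library left out, including 0.031 without sh2 replicate 2 and 0.038 without sh2 replicate 3. The cause of these changes was not tested. A share of graded genes among those called had no value with all 6 libraries, as 0 genes were called. Low read numbers limit the 10 kb table most.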
